A study of Mus musculus with 2 samples.

Results

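The 34 genes described here drive or restrain the cell division cycle. They comprise 5 cyclins and kinases of the G1 phase, 4 genes that act at the entry into S phase, 10 S-phase genes, 11 mitotic genes and 4 inhibitors, and they were picked by gene symbol. They are 34 of the 55536 mouse genes in the gene tables, and all 34 were found there. The samples were nuclear fractions of bone-marrow-derived macrophages (C57BL/6J mice), primary cells grown out of marrow. One label calls the fraction nuclear and another nucleoplasmic. Its total RNA was sequenced after removal of ribosomal RNA. The macrophages received Lipid A, the portion of bacterial lipopolysaccharide that binds the receptor TLR4, at 100 ng/ml for 12 h, were kept for 12 h after it had been washed away, and were collected 120 min into another exposure at 100 ng/ml. All samples belong to this 1 group, as 2 biological replicates made from 1 µg of RNA (replicate 1) and 500 ng (replicate 2). Both carry the same donor label, and their sex and age were not collected, so the spread between them may be technical in part. No untreated macrophages were analysed here, and the values describe the state of the nuclei rather than an effect of Lipid A.

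Division proceeds from G1 through S phase to mitosis. In G1 the D-type cyclins pair with the kinases Cdk4 and Cdk6 and phosphorylate the retinoblastoma protein Rb1, which frees E2F factors to switch on cyclin E and the genes of DNA synthesis. Later the complexes that contain Cdk1 carry the cell through mitosis, and the inhibitors of the cyclin-dependent kinases (CDKs) brake the cycle at several points. Bone marrow macrophages divide in culture in response to the growth factor CSF1, and lipopolysaccharide is known to arrest that division.

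The libraries held 28450309 (replicate 1) and 16940220 (replicate 2) expected counts on mouse genes, of which the cell cycle genes took 0.117% and 0.124%. Mitochondrial transcripts took 4.15% of the counts in replicate 1 and 10.3% in replicate 2. All 10 macrophage markers reached a TPM of 1 in both libraries; TPM gives a gene's part of the transcripts after correction for length. None of the B cell, erythroid, fibroblast, neutrophil and promyelocyte, or haematopoietic progenitor markers did so. The T cell list passed only through Cd4 (13.9 TPM in replicate 1 and 13.5 in replicate 2), with Cd3e and Cd3g at 0. The endothelial list passed only through Kdr (12.0 and 8.30 TPM), with Tek at 0 TPM. By a second tool, another estimate deposited for the same libraries, further markers passed. They were Alas2 (erythroid, 1.45 TPM in replicate 1 and 3.41 in replicate 2), Cd3d (T cell, 1.00 and 5.57) and Pecam1 (endothelial, 1.45 and 14.4). By the first estimate these had 0.84 and 1.77, 0.03 and 0, and 0.54 and 0.55 TPM. Among progenitor markers, Myb had 0.37 TPM in replicate 1 against 1.98 in replicate 2, and Kit 0.42 and 0.68. In such bulk RNA, fewer cells in cycle and less RNA per cycling cell cannot be told apart.

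Of the 34 cell cycle genes, 22 (64.7%) had a TPM of 1 or more in both libraries, against 39.6% of the 22015 protein-coding genes of the nuclear genome. The roles differed in this count. All 5 G1 cyclins and kinases, 3 of 4 G1/S drivers, 9 of 10 S-phase genes and 3 of 4 inhibitors reached it, but 2 of 11 mitotic genes. Protein-coding genes of the nuclear genome held 17.6% of TPM in replicate 1 and 21.7% in replicate 2, so these counts depend on the scale. With TPM rescaled to protein-coding genes, 29 of the 34 had 1 or more in both libraries. The mitotic median was then 2.15 in replicate 1 and 2.07 in replicate 2. The S-phase median was 7.65 and 12.0, and that of all protein-coding genes 1.02 and 1.33. None of the 34 was at 0 in both libraries. When the genes were ranked by mean TPM, the ranges of 29 of the 33 pairs of neighbours overlapped between libraries. The ranges were apart between Cdkn1a and Cdk6, Ccnd3 and Rrm1, Mcm5 and Cdk1, and Bub1 and Plk1, so most single steps of the order were within the spread of the replicates. With TPM rescaled to protein-coding genes, the ranges of 22 of the 33 pairs overlapped.

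**Figure D1:**
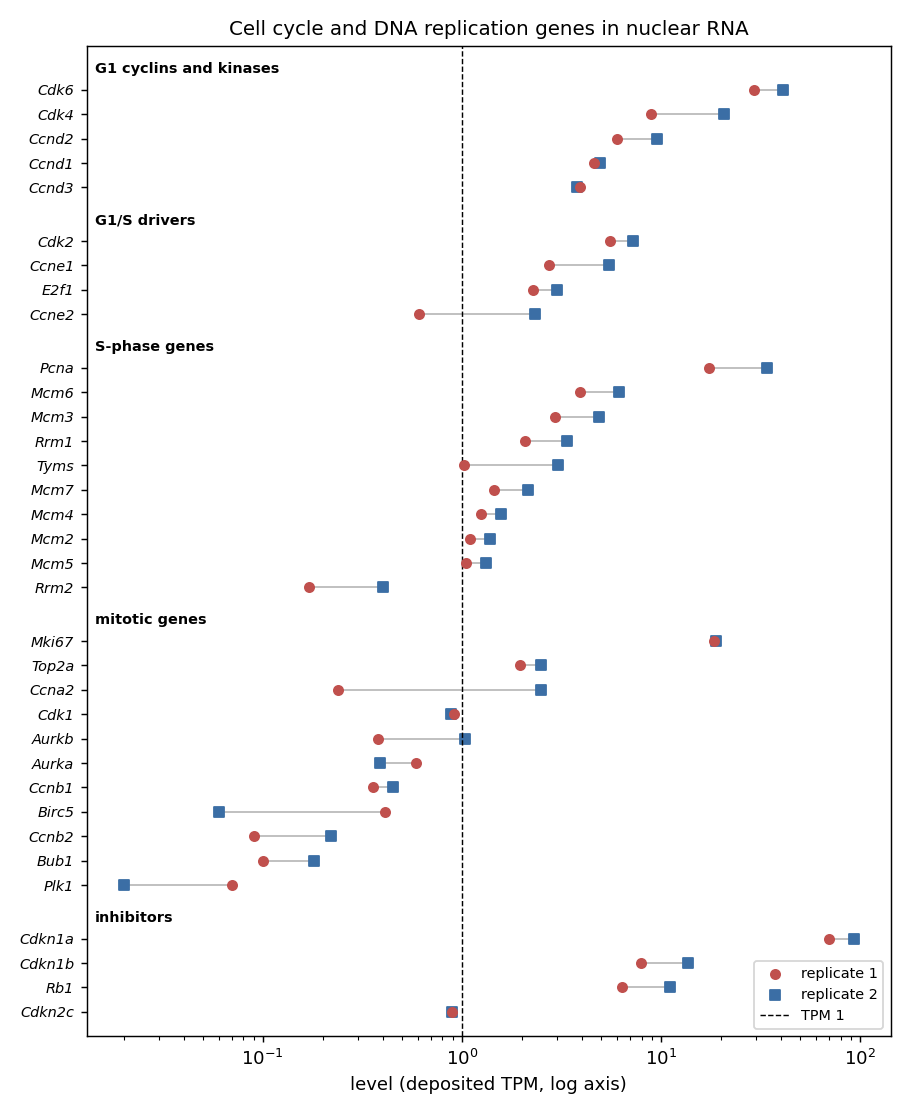
Level of each of the 34 genes in replicate 1 (circles) and replicate 2 (squares) as deposited TPM on a log axis, grouped by role and ordered by mean within a role; the dashed line marks TPM 1. Cdkn1a lies furthest right in both libraries at 69.7 and 93.4 TPM, and 7 of the 11 mitotic genes lie left of the line in both.

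Among the G1 genes the kinase Cdk6 (mm10 chr5:3341485-3531008, plus strand) stood first, with 29.5 TPM in replicate 1 and 41.2 in replicate 2, a mean of 35.4 ± 8.27 (SD, n = 2). Its partner in function Cdk4 had 8.88 TPM in replicate 1 and 20.8 in replicate 2. The TPM of Cdk6 was 3.32 times that of Cdk4 in replicate 1 and 1.98 times in replicate 2, so the order held in each library although its size did not. Of the D-type cyclins, which activate both kinases, Ccnd2 had 6.03 and 9.59 TPM in replicates 1 and 2. Ccnd1 had 4.61 and 4.94 TPM, and Ccnd3 3.93 and 3.79 TPM. Ccnd2 was the highest cyclin D gene in both libraries, and Ccnd3 the lowest by this TPM. The place of Ccnd3 is uncertain: by posterior mean TPM, another deposited estimate, it had 5.85 in replicate 1 and 7.77 in replicate 2 and stood above Ccnd1 (4.65 and 4.94), and its TPM lay below its own deposited interval in both.

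The genes of S-phase entry had a lower median, 2.51 TPM in replicate 1 and 4.24 in replicate 2, against 6.03 and 9.59 TPM for the G1 genes, though single genes of the groups overlapped. Cdk2, the kinase bound by cyclin E, had 5.53 TPM in replicate 1 and 7.26 in replicate 2, above Ccnd1 and Ccnd3 in both. By posterior mean TPM it had 5.54 and 7.17, below Ccnd3 (5.85 and 7.77) in both. Ccne1 and Ccne2 encode the E-type cyclins. Ccne1 had 2.74 TPM in replicate 1 and 5.48 in replicate 2, whereas Ccne2 had 0.61 and 2.34 TPM and was the only driver below TPM 1 in a library. E2f1, a transcription factor that activates S-phase genes, had 2.28 TPM in replicate 1 and 3.0 in replicate 2.

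Pcna, the sliding clamp of DNA polymerases (mm10 chr2:132249162-132253314, minus strand), stood apart among the S-phase genes. It had 17.4 TPM in replicate 1 and 34.4 in replicate 2 (mean 25.9 ± 12.0, SD, n = 2), which was 4.43 and 5.59 times the next S-phase gene. That gene was Mcm6, at 3.94 TPM in replicate 1 and 6.15 in replicate 2. Pcna was also first by the second tool, at 10.6 and 20.9 TPM. There Mcm6 (2.18 TPM) came next in replicate 1 and Rrm1 (7.57 TPM) in replicate 2. Mcm2 to Mcm7 encode the subunits of the replicative helicase, which act as a ring with an equal share of each. Their nuclear RNA was not equal: after Mcm6 came Mcm3 (2.93 and 4.89 TPM in replicates 1 and 2), Mcm7 (1.45 and 2.16), Mcm4 (1.25 and 1.58), Mcm2 (1.10 and 1.39) and Mcm5 (1.05 and 1.32). The median of the 6 was 1.35 TPM in replicate 1 and 1.87 in replicate 2, and each of the 6 was above TPM 1 in both libraries. By the second tool, another estimate of transcript levels deposited for the same libraries, only Mcm6 (2.18 and 4.81 TPM) and Mcm3 (1.11 and 2.55 TPM) were above TPM 1 in both. By posterior mean TPM Mcm2 had 2.29 and 2.77, a mean above that of Mcm7, so the order below Mcm6 and Mcm3 depends on the estimate.

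The remaining S-phase genes make DNA precursors. Rrm1, the large subunit of ribonucleotide reductase, had 2.09 TPM in replicate 1 and 3.36 in replicate 2. Rrm2, the small subunit of that enzyme, had 0.17 and 0.40 TPM on 13 and 14 counts, and was the only S-phase gene below TPM 1 in both libraries. Tyms, thymidylate synthase, had 1.03 TPM in replicate 1 and 3.06 in replicate 2. Rrm2 shares 12.0% of its 31-base words with 13 other genes, so its count is uncertain. Pcna shares 23.3% with the pseudogene Pcna-ps2, which held 0.46 and 4.38 counts against 990.5 and 786.6 for Pcna.

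Mki67, which encodes the proliferation marker Ki-67 (mm10 chr7:135689784-135716361, minus strand), was the exception among the mitotic genes. It had 18.5 TPM in replicate 1 and 19.0 in replicate 2 (mean 18.8 ± 0.361, SD, n = 2), on 8511 and 3858 counts. It held 94.5% and 91.7% of the summed counts of the 11 mitotic genes, and 78.3% and 69.7% of their summed TPM. In replicate 1 its TPM was 9.40 times that of the next mitotic gene, and in replicate 2 it was 7.58 times. By the second tool these ratios were 5.77 and 2.65. Mki67 was the highest mitotic gene in both libraries and by both tools.

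The other mitotic genes were low by the first estimate. Top2a, the topoisomerase that untangles sister DNA, had 1.97 TPM in replicate 1 and 2.50 in replicate 2. Ccna2 (cyclin A) had 0.24 and 2.51 TPM, and the kinase Cdk1 had 0.91 and 0.88 TPM. The kinases Aurkb (0.38 and 1.04 TPM) and Aurka (0.59 and 0.39 TPM) act at the spindle and centromere. The cyclin B genes Ccnb1 (0.36 and 0.45 TPM) and Ccnb2 (0.09 and 0.22 TPM) pair with Cdk1; Ccnb1 lay below Aurka in replicate 1 and above it in replicate 2. Birc5, the survivin gene, had 0.41 TPM in replicate 1 and 0.06 in replicate 2, the checkpoint kinase gene Bub1 had 0.10 and 0.18, and the kinase gene Plk1 had 0.07 and 0.02 on 5 and 1 counts. Of the 34 genes, 9 had fewer than 50 counts in both libraries, and 8 of those were mitotic. The median of the 11 mitotic genes was 0.38 TPM in replicate 1 and 0.45 in replicate 2. By the second tool it was 0.37 and 1.23 TPM.

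Cdkn1a, the inhibitor that p53 induces (mm10 chr17:29090976-29100727, plus strand), was the highest of all 34 genes. It had 69.7 TPM in replicate 1 and 93.4 in replicate 2, a mean of 81.5 ± 16.8 (SD, n = 2), and stood at percentile 98.3 of the protein-coding genes by mean TPM. This was 2.36 and 2.27 times the next of the 34 genes, Cdk6. Cdkn1b, an inhibitor linked to quiescence, had 7.97 TPM in replicate 1 against 13.7 in replicate 2, and Rb1 had 6.37 and 11.1 TPM. Cdkn2c, an inhibitor specific to Cdk4 and Cdk6, had 0.89 TPM in both libraries. The lead of Cdkn1a therefore did not extend to the other inhibitors, of which Cdkn2c was below TPM 1.

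The groups were then set beside each other as the difference of their median log2(TPM + 1) within each library. S-phase genes exceeded mitotic genes by 0.77 in replicate 1 and 1.30 in replicate 2 (mean 1.04 ± 0.38, SD, n = 2). Inhibitors exceeded S-phase genes by 1.79 and 1.90 (mean 1.85 ± 0.075), and exceeded mitotic genes by 2.56 and 3.20 (mean 2.88 ± 0.46). The direction was the same in both libraries for each pair. With 2 libraries the smallest exact two-sided permutation p is 0.5, so these differences are descriptions. The first depends on the low genes: it was 0.24 without the genes below TPM 1 in both, which removed 7 of the 11 mitotic genes, and 0.55 with the TPM of the second tool.

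Promoters were compared because S-phase and mitotic genes are known to be served by different elements, E2F sites for the first and the cell cycle homology region (CHR) with CCAAT boxes for the second. The 250 bases before the start were taken from RefSeq (GRCm38.p6) for the 27 genes with an entry, at the start nearest to that of the protein-coding transcript with the highest TPM; Rb1, Ccnd1, Ccnd2, Ccne2, Mcm4, Ccna2 and Aurkb had none. The RefSeq start lay 539 bases from the transcript start for Mcm7, 433 for Cdkn2c, 294 for E2f1 and 134 for Pcna. For the other genes it lay at most 84 bases away. Both strands were searched. The first E2F word was TTCCCGC, the next was TTGGCGC, then came TTCGCGC, and the last was TTGCCGC. The CHR word was TTTGAA, and the CCAAT box was its own letters. The 4 promoters below are shown as Mki67 and Cdk1 are the highest mitotic gene and one that is low by the deposited TPM, Mcm6 is the helicase gene with the highest level and Cdkn1a is the highest gene of all. Capitals mark every match; words of different kinds do not overlap here. All 4 are written 5′ to 3′ on the strand of the gene, at chr1:128359706-128359955 (minus) for Mcm6, chr7:135716380-135716629 (minus) for Mki67, chr10:69352913-69353162 (minus) for Cdk1 and chr17:29093519-29093768 (plus) for Cdkn1a.
Mcm6: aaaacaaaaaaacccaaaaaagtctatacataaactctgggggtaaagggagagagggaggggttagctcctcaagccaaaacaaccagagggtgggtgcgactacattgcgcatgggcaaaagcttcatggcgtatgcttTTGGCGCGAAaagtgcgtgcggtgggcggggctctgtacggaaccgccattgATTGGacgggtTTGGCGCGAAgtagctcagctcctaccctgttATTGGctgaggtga
Mki67: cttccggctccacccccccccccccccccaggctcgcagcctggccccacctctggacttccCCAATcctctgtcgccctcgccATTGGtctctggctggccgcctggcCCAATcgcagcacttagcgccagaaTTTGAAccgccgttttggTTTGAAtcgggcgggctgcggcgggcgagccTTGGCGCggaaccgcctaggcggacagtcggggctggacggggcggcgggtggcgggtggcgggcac
Cdk1: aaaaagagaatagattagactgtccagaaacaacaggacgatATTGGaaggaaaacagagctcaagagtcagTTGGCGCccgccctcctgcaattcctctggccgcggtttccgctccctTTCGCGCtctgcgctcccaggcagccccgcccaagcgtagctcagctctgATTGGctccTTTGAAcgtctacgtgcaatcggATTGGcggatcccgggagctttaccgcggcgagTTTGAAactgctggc
Cdkn1a: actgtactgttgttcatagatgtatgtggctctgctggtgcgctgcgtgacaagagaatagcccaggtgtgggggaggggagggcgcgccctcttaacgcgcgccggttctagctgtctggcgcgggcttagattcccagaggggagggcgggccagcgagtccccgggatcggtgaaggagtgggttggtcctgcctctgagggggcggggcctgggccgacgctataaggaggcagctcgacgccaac

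The Mcm6 promoter holds the E2F words as a pair that overlaps on opposite strands, at 2 places, and 2 CCAAT boxes. The Mki67 promoter holds 1 E2F word, 2 CHR words and 3 CCAAT boxes. Cdk1 has the same kinds of match, with 2 E2F words, 2 CHR words and 3 CCAAT boxes, at a level of 0.91 and 0.88 TPM against 18.5 and 19.0 TPM for Mki67. By the second tool Cdk1 had 1.57 TPM in replicate 1 and 4.60 in replicate 2, against 9.04 and 12.2 TPM for Mki67. The Cdkn1a window holds none of these words. An E2F word occurred in 5 of 9 S-phase, 3 of 9 mitotic, 1 of 3 G1/S, 1 of 3 inhibitor and 0 of 3 G1 promoters, or 10 of 27 in all (37.0%), against 7.89% of the 32851 promoters of the table. The CHR word occurred in 4 of 9 mitotic promoters (Mki67, Top2a, Cdk1 and Ccnb2) and in 1 of 9 S-phase promoters (Mcm2), or 18.5% of the 27, against 16.0% of all promoters. CCAAT occurred in 8 of 9 S-phase and 8 of 9 mitotic promoters, or 70.4% of the 27, against 33.8% of all. The E2F words of Mcm7 (S phase) and Cdkn2c (the inhibitor) came from windows whose RefSeq start lay 539 and 433 bases from the transcript start. A match is a matter of letters and not a measured site, and a missing word says only that it is not in this window.

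The replicates were compared gene by gene to show which levels rest on 1 library. Replicate 2 had the higher TPM for 28 of the 34 genes and for 83.3% of the 14698 genes tested, with a median difference in log2(TPM + 1) of -0.43 (replicate 1 minus replicate 2). Counts scaled by TMM, a normalization that sets the bulk of genes level, had a median log2 ratio of -0.0093 over all tested genes and are used to compare the libraries. An exact two-sided binomial test of counting error, with Benjamini-Hochberg adjustment over all tested genes, called 6 of the 32 tested cell cycle genes higher in replicate 1, where 30.0% of all tested genes were called. It called 5 higher in replicate 2, against 29.3% of all. These are 18.8% and 15.6% of the 32, and neither exceeded the share called among all genes. With the counts of the second tool 17 of 34 (50%) were called higher in replicate 1, against 30.6% of all genes, so that statement does not hold for that table. The median log2 ratio of the 32 genes relative to all tested genes was 0.015, with replicate 1 over replicate 2. With the counts of the second tool, the median over the 34 genes was 0.29. Ccnb2 and Plk1, with a mean count under 10, were not tested. Markers of cell type differed between the libraries as well. All 10 macrophage markers were called higher in replicate 1 with TMM scaling, and their ratios under other scalings are not given here. By TPM, 6 of the 10 were higher in replicate 1 and 4 in replicate 2. Their median log2 ratio relative to all tested genes was 0.74, and the smallest were those of Adgre1 (0.17) and Cd14 (0.19). Of the progenitor markers, Myb was called higher in replicate 2 (-1.75 on that scale, adjusted p = 1.54e-13, exact binomial test). Flt3 was called higher in replicate 1 (1.64, adjusted p = 0.0208, same exact test) on 25 and 5 counts, and Kit was not called (-0.21). The part of these markers in the ratios of the cell cycle genes was not tested.

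**Figure D2:**
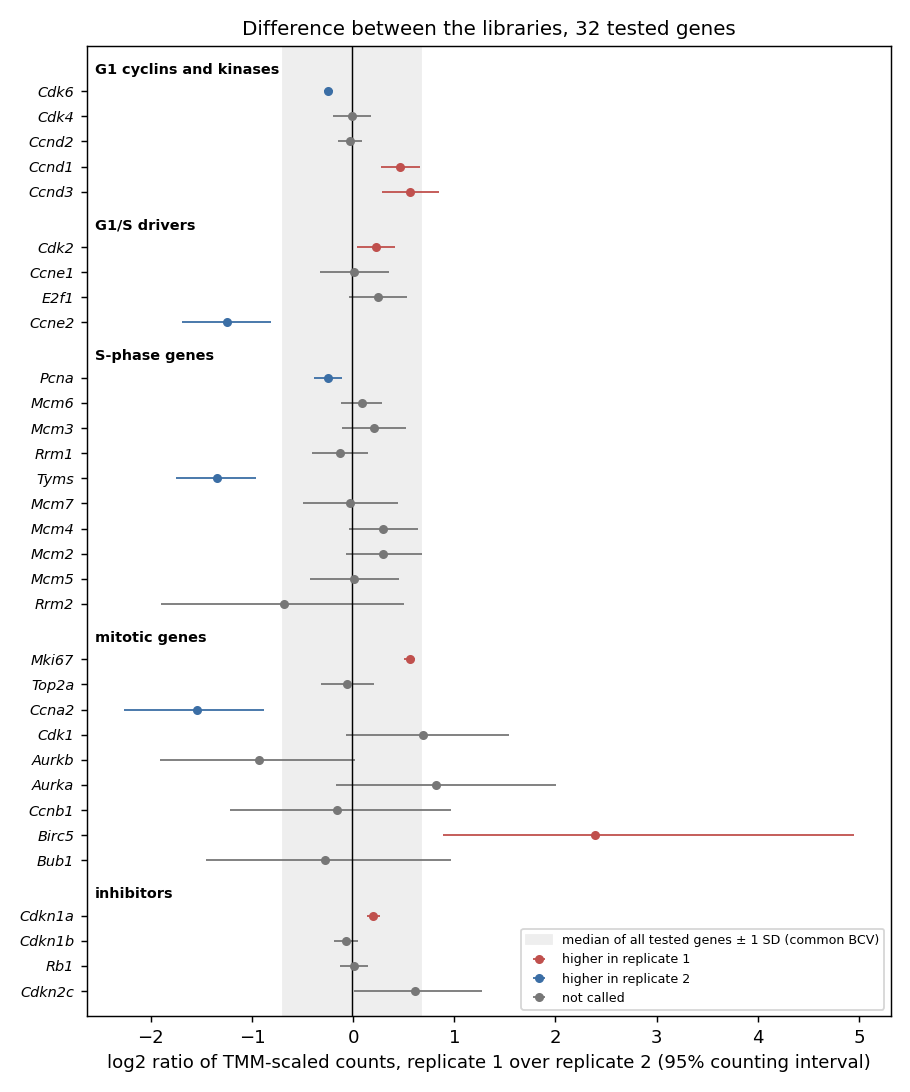
Log2 ratio of TMM-scaled counts, replicate 1 over replicate 2, with 95% counting intervals, for the 32 tested genes; red is higher in replicate 1, blue higher in replicate 2 and grey not called, and the band spans 1 SD of such a ratio (0.68) around the median of all tested genes. Of the called genes, Ccna2, Tyms and Ccne2 lie left of the band and Birc5 right of it, while Mki67 lies inside it; of those not called, Aurkb lies left and Aurka and Cdk1 right.

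The calls in favour of replicate 1 were Mki67 (log2 ratio 0.56, adjusted p = 1.86e-90), Ccnd3 (0.56, 1.13e-04), Ccnd1 (0.47, 1.91e-06), Cdk2 (0.22, 0.0329), Cdkn1a (0.20, 1.74e-09) and Birc5 (2.39, 0.00143), by the exact binomial test. Cdkn1a and Cdk2 thus had more scaled counts in replicate 1 although their TPM was higher in replicate 2. The calls in favour of replicate 2, by the same exact test, were Ccna2 (log2 ratio -1.55, adjusted p = 7.57e-06), Tyms (-1.35, 6.99e-12), Ccne2 (-1.24, 3.06e-08), Pcna (-0.25, 7.22e-04) and Cdk6 (-0.24, 7.14e-26). The TPM values of Mki67, which lay close together, thus did not mean equal scaled counts. The test covers counting error only. The spread between the replicates over all tested genes, a common biological coefficient of variation of 0.335, corresponds to an SD of 0.68 for a log2 ratio of 2 libraries. Of the 11 calls, 4 went beyond that SD: Ccna2, Tyms, Ccne2 and Birc5. With Aurkb, Aurka and Cdk1, which were not called, 7 of the 32 (21.9%) did so, against 32.2% of all tested genes.

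Under 7 other scalings, filters and count tables, the calls of Mki67, Tyms and Ccne2 held each time, and that of Ccna2 held under the 6 in which it had enough counts to be tested. The other 7 calls were lost or turned round under at least 1. Scaled to the total count, 8 of 32 (25%) were called higher in replicate 2, against 38.6% of all genes. Scaled to the total count of protein-coding genes, 2 (6.25%) were called higher in replicate 1 and 13 (40.6%) higher in replicate 2, against 16.4% and 47.2% of all genes. Cdkn1a had a log2 ratio of -0.048 (adjusted p = 0.202, exact binomial test) relative to genes of like GC content, so its small difference was not one on which the scalings met. The median ratio between the libraries was -0.63 in the lowest of 10 bins of GC content and 0.50 in the highest. Ccne2 and Ccna2 lie at 35.0% and 37.8% GC, and relative to genes of like GC their ratios were -0.61 and -0.91. Tyms (46.6% GC) had -1.23 and Mki67 (46.6% GC) 0.68 on that scale.

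Birc5 shows how far 1 low gene can depend on the tool. The gene table gave it 27 counts in replicate 1 and 3 in replicate 2, whereas the second tool gave 329 and 435. Nearly all counts of the second tool were on the transcript Birc5-202 (323.0 and 435.3), and 158 of the 3401 words of 31 bases in Birc5 occur in 768 other genes. The second tool also gave over 2 times the count of the gene table for 6 of the 34 genes (17.6%) in replicate 1 and for 11 (32.4%) in replicate 2, against 18.4% and 43.3% of all tested genes. For Tyms it gave 399 counts in replicate 1 and 681 in replicate 2, against 88 and 150 in the gene table. For Cdk1 it gave 136 and 153 counts, against 49 and 20. Of the 10 highest of the 34 genes by mean TPM, 9 were shared by both tools.

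The nuclear fraction holds unspliced and partly spliced RNA, so the annotated transcript type of each gene's TPM was examined. Over the 32 tested genes a median of 84.3% of TPM in replicate 1 and 83.1% in replicate 2 lay on protein-coding transcripts, against 81.2% and 76.3% over all 11344 tested protein-coding genes. Transcripts annotated as retained intron took a median of 21.9% and 25.8% in the 23 genes that have 1, against 23.4% and 29.7% over the 6823 such genes. Of the 32 genes, 6 have only protein-coding transcripts in the annotation (Mki67, Mcm4, E2f1, Birc5, Cdkn1b and Cdkn2c), which fixes their share at 100%. Over the other 26, a choice of genes made after the values were seen, the protein-coding median was 76.2% in replicate 1 and 73.8% in replicate 2, against 72.9% and 66.2% over the 9129 such genes.

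**Figure D3:**
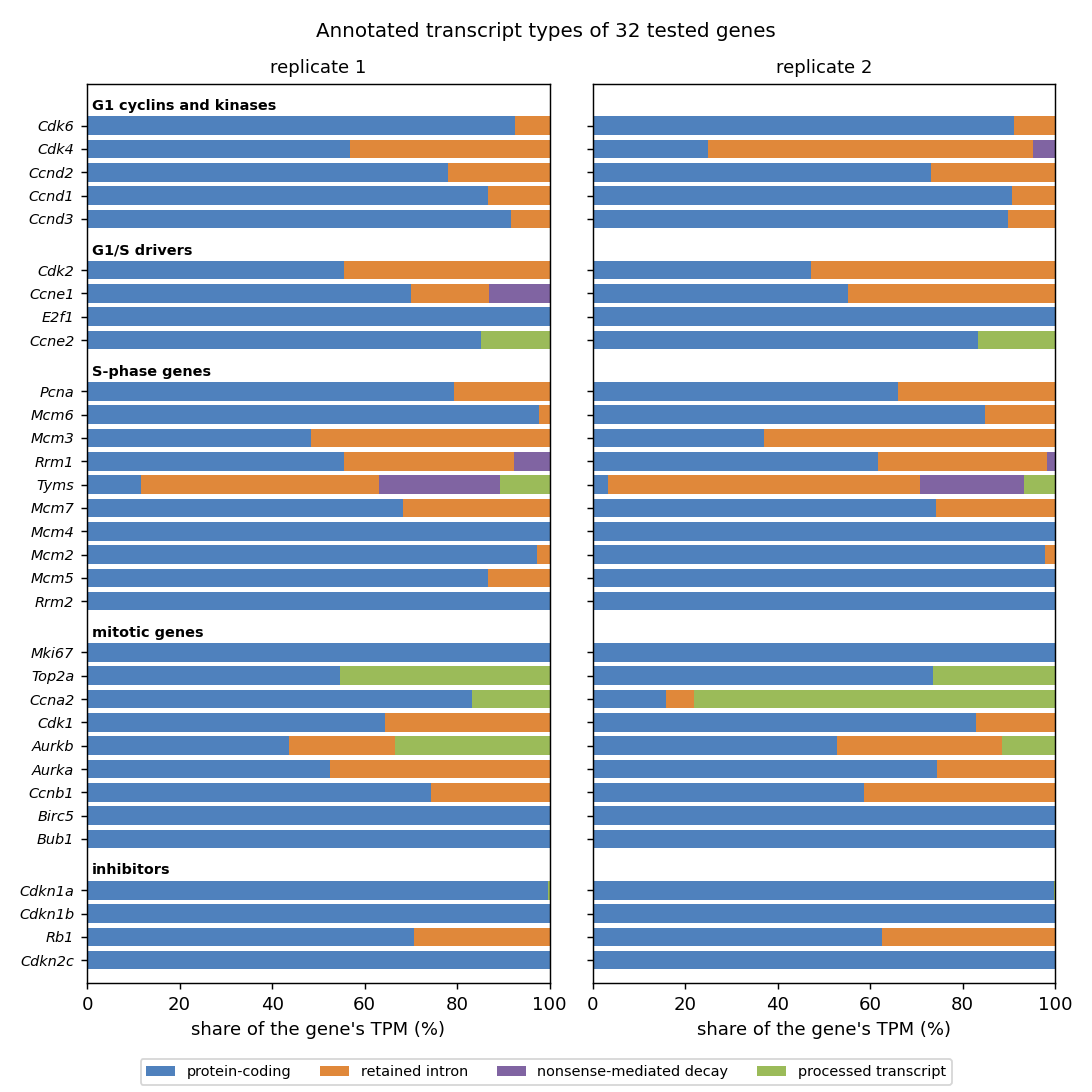
Share of each gene's TPM by annotated transcript type (bars add to 100%) in replicate 1 (left) and replicate 2 (right) for the 32 tested genes, grouped by role. Genes with only protein-coding transcripts annotated, such as Mki67 and E2f1, fill the bar by construction; Cdk4, Mcm3 and Tyms carry 43.2% to 70.2% of their TPM on retained-intron transcripts.

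Rrm2 and Bub1 have retained-intron transcripts in the annotation and still lay wholly on protein-coding ones, on 13 and 14 counts for Rrm2 and 15 and 12 for Bub1. By the second tool the protein-coding share of Rrm2 was again 100% in both libraries. That of Bub1 was 43.0% in replicate 1 and 79.4% in replicate 2. Of Cdkn1a, 99.7% lay on protein-coding transcripts in each library, and its main transcript Cdkn1a-201 had 64.9 TPM in replicate 1 and 88.0 in replicate 2. Mki67-201, the long form of 10061 bases, had 17.5 and 18.7 TPM. Cdk6-202 had 15.7 TPM in replicate 1 against 29.1 in replicate 2, and the short Cdk6-203 had 9.82 and 5.21.

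Other genes had much of their TPM on retained-intron forms. For Cdk4 the share was 43.2% in replicate 1 and 70.2% in replicate 2, and Cdk4-209, a form of 468 bases, had 0.86 TPM in replicate 1 and 8.37 in replicate 2 on 9.91 and 44.0 counts. By the first estimate, most of the difference in the TPM of Cdk4 was on this short form. By the second tool Cdk4-209 had 0.64 and 4.18 TPM and Cdk4-207 1.04 and 2.94, of 4.46 and 12.1 for the gene. The scaled counts of Cdk4 were not called different between the libraries by the exact binomial test (log2 ratio -0.01, 95% interval -0.20 to 0.17, adjusted p = 0.955). For Tyms retained-intron forms took 51.5% and 67.4%, and protein-coding forms 11.7% and 3.3%, but the second tool gave 50.8% and 49.5% to protein-coding forms. Cdk2 (44.5% and 52.9% retained intron) was also high, and on counts its shares were 49.4% and 58.9%. Mcm3 had 51.5% and 63.0% of TPM but 16.6% and 21.4% of counts on such forms. For Pcna the share was 20.6% in replicate 1 and 34% in replicate 2, with Pcna-204 at 2.18 and 9.51 TPM and the protein-coding Pcna-201 at 13.9 and 22.7 TPM. Ccna2 differed between the libraries mainly on the processed transcript Ccna2-204, with 1.48 counts in replicate 1 and 30.2 in replicate 2, while the protein-coding Ccna2-201 had 26.3 and 23.2 counts.

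Some of the counts lie where genes overlap, and the strand setting of the counting was not given in the sources used here. Of the exonic bases of Ccnd1, 23.4% lie in an exon of LTO1 on the opposite strand. The share was 19.7% for Cdk4 with Tspan31, 17.4% for Ccne2 with Ints8, and 12.5% for Ccna2 with Exosc9. Ints8 had 827 counts in replicate 1 and 696 in replicate 2, and Exosc9 282 and 303, well above Ccne2 (71.7 and 114) and Ccna2 (27.8 and 55.4). What part these neighbours have in the counts of Ccne2 and Ccna2 was not tested. Ccnb1 shares 27.7% of its words and Mcm7 26.8%, mostly with Ccnb1-ps and Gm5487, which held 0 expected counts, and Plk1 shares 14.8% with Plk-ps1, which had 55 and 54 counts against 5 and 1 for Plk1.

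Further genes of the same pathways, 155 in all, were taken from lists of 4 kinds. Of 51 other replication factors, 30 reached TPM 1 in both libraries, and the median of the list was 1.30 TPM in replicate 1 and 1.91 in replicate 2. The highest were Samhd1 (213 and 273 TPM), which breaks down deoxynucleotides and restricts viruses in macrophages, Orc4 (18.1 and 42.2 TPM), a subunit of the origin recognition complex, and Pold3 (15.7 and 26.1 TPM), a subunit of DNA polymerase delta. In contrast 11 of 54 other genes of mitosis and cytokinesis reached TPM 1 in both, and the median was 0.355 and 0.585 TPM. They were led by Pttg1, the securin gene (17.0 and 15.7 TPM), Smc4, a condensin subunit (9.49 and 17.3 TPM), and Mad2l1, a checkpoint gene (6.31 and 8.75 TPM). By the first estimate, most mitotic genes were low in this list as among the 11. By the second tool the median of the 54 was 0.49 TPM in replicate 1 and 1.18 in replicate 2. That of the 51 replication factors was 1.07 and 2.76 TPM.

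**Figure D4:**
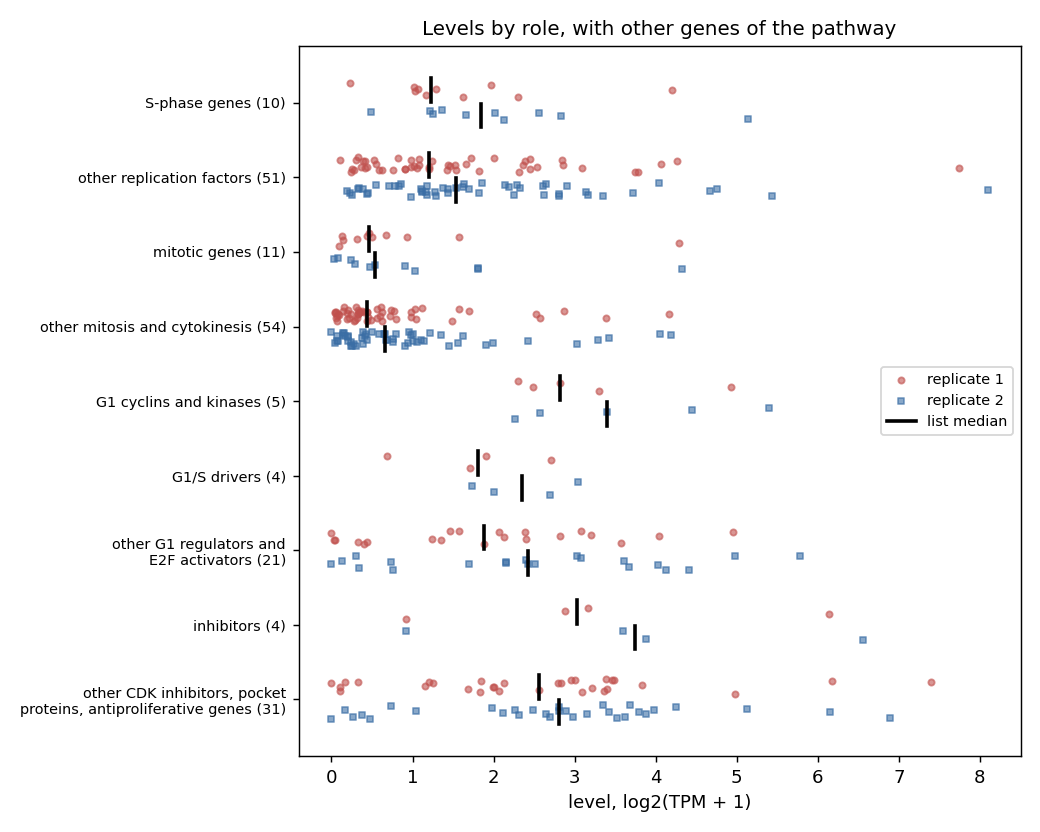
Level of each gene as log2(TPM + 1) in replicate 1 (circles) and replicate 2 (squares) for the 5 roles and for 4 lists of other genes of the same pathways, with the number of genes in brackets; black bars are list medians. The mitotic genes and the other genes of mitosis and cytokinesis have the lowest medians, and Samhd1 is the far-right point of the other replication factors at 213 and 273 TPM.

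Of 31 other CDK inhibitors, relatives of Rb1 and antiproliferative genes, 24 reached TPM 1 in both libraries, and the median of the list was 4.88 and 6.02 TPM. Gadd45b, a stress-response gene, led with 167 TPM in replicate 1 and 117 in replicate 2. Mdm2, the ubiquitin ligase of p53 and like Cdkn1a a p53 target, had 71.1 and 69.8 TPM, and the antiproliferative gene Btg1 had 30.5 and 33.9 TPM. Cdkn2a, the locus of the senescence-linked inhibitor p16, had 0 counts in both libraries, where a count of 0 allows up to 3 counts. Of 21 other G1 regulators and E2F activators, 15 passed TPM 1 in both, led by Max, the partner of Myc (30.1 and 53.8 TPM), Gspt1 (15.4 and 30.6 TPM) and Cdk8, a kinase of the Mediator complex (8.20 and 20.3 TPM), and Mycn had 0 counts in both. Over the 155 genes the exact binomial test called 38 higher in replicate 1 and 24 higher in replicate 2 of 134 tested, which is 28.4% and 17.9%, against 30.0% and 29.3% of all tested genes.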

How the data were processed

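The authors deposited, for each sample, a gene table and a transcript table of expected counts (estimated counts) and TPM, per the file headers. The deposited descriptions name mm10 and GENCODE M21 for them. A transcript table of a second tool, also deposited, gave estimated counts and TPM. Which tools, versions and strand setting were used was not given in the sources used here. Interval bounds of the deposited TPM estimates were also read. Rows naming no mouse gene (1.79% of counts in replicate 1 and 0.318% in replicate 2) were left out. Expected counts were rounded and library sizes scaled by TMM (edgeR 4.0.16, R 4.3.3), or by the size factors of DESeq2 1.42.0 as an alternative. The exact two-sided binomial test took the 14698 genes whose mean count was at least 10. It was tried on simulated counts that held counting error only, which cannot show how it behaves under the spread between replicates. Its p-values were adjusted by Benjamini-Hochberg and called at 0.05. With 1 group no quasi-likelihood test was possible, and intervals and floors cover counting error only. Other computation used Python 3.11.15 (scipy 1.17.1, pandas 2.3.3, numpy 2.4.6, matplotlib 3.10.9). All 34 genes are named, with the 3 highest of each other list by mean TPM and those at 0. These genes and lists were chosen with earlier results of these data known. Pseudocounts, thresholds, scalings, filters, GC content, the second tool and left-out replicates were varied.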

Additional observations from a re-analysis of the deposited data

How the results depend on the processing

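S-phase genes stayed above mitotic genes, and inhibitors above both, under every alternative tried, and the sizes of these differences varied. S-phase minus mitotic genes was 1.94 with a pseudocount of 0.1, 0.24 without genes under TPM 1 in both libraries, 0.55 with the second tool and 1.76 with TPM rescaled to protein-coding genes. Inhibitors minus S-phase genes was 2.27 with the pseudocount of 0.1, 1.68 with means, 1.45 with the second tool, 1.55 with posterior mean TPM, 2.22 after rescaling and 1.99 without Rb1. Inhibitors minus mitotic genes was 4.21, 2.11, 2.00 and 3.97 with the pseudocount of 0.1, without genes under TPM 1, with the second tool and after rescaling. With 1 replicate left out, these 3 differences ranged from 0.77 to 1.30, 1.79 to 1.90 and 2.56 to 3.20. With the threshold kept at TPM 1, 19 cell cycle genes passed by the second tool, 24 by posterior mean TPM and 29 after rescaling. Other thresholds let 25 (TPM 0.5) and 16 (TPM 2) pass. At TPM 1 the count ranged from 22 to 25 with 1 replicate left out.

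Genes called higher in replicate 1 numbered 2 of 32 when scaled to the total count of protein-coding genes (16.4% of all genes were called) and 17 of 34 (50%) with the counts of the second tool (30.6% of all). Those called higher in replicate 2 numbered 8 (25%) with the total count and 13 (40.6%) with that of protein-coding genes, against 38.6% and 47.2% of all genes. The median relative log2 ratio was -0.019 with no filter on low counts and -0.021 at a mean count of 50 or more. It moved most with the counts of the second tool, to 0.29. With the second tool, ratios turned round for Ccnd2 (0.20), Cdk4 (0.24), Pcna (0.23), Birc5 (-0.23) and Cdkn1b (0.25). They did so with the total count of protein-coding genes for Cdk2 (-0.071), Cdkn1a (-0.097) and Rb1 (-0.29), and relative to genes of like GC content for Cdkn1a (-0.048) and Cdkn1b (0.14). The median protein-coding share was 64.2% with the second tool, 95.7% on counts 85.0% at a mean count of 50 or more and 75.0% over genes with another annotated transcript type (chosen after seeing the data), against 83.7% as reported, and 83.1% to 84.3% with 1 replicate left out. The cause was not tested. No paired analysis was possible because there is 1 group. Counts under 50 limit the mitotic genes most.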
